A study of Homo sapiens with 4 samples.

Results

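Probe sets that aligned to a stretch of the short arm of chromosome 3 and to a stretch of the long arm of chromosome 13 gave, for the most part, higher signals in SAS carcinoma cells with HAI-1 knockdown than in their controls. Both stretches were selected on the measured difference between these same arrays. The members were all probe sets, apart from the manufacturer's controls, whose first listed alignment started between 3.14 and 25.69 megabases (Mb) on chromosome 3 or between 52.12 and 107.66 Mb on chromosome 13, and whose mean signal over the 4 arrays was at least 55. There were 354 members among 54613 probe sets, 27985 of which reached the minimum signal. The chromosome 3 stretch held 197 members with 92 named genes, and the chromosome 13 stretch held 157 members with 60 named genes. Because the contrast that chose the stretches is the one described here, the members' differences are given as a description, with no test, and nothing is read from their counts of calls. Positions are those of the array's annotation, whose genome build is not named in the sources used here.

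SAS is a human oral squamous cell carcinoma line. HAI-1 is the membrane-bound serine protease inhibitor encoded by SPINT1. The knockdown group (2 arrays) carried the retroviral vector pSINsi-hU6 expressing a short hairpin RNA against SPINT1, and the control group (2 arrays) carried the same vector with a scrambled form of that hairpin. Both groups were retrovirally infected and grown in RPMI1640 with fetal bovine serum, and the labels state neither whether the infected cells were clones nor whether the 2 repeats were separate cultures, so the spread between arrays may be technical.

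Genes that lie next to each other on a chromosome usually belong to unrelated pathways, and a stretch of this kind is a position, not a function. Carcinoma cell lines often carry gained or lost chromosome segments, and such segments can differ between subpopulations of one line. An expression array measures RNA and gives no DNA copy number, and a bulk RNA level cannot separate a change in every cell from a change in the share of cells that express a gene.

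To show what lies upstream of members of both stretches, 4 promoters are printed, those of TMEM40 and LSM3 (chromosome 3) and of NDFIP2 and MBNL2 (chromosome 13), which combined high signal with the larger differences among such genes. The sequences are the 150 bases before the annotated start, read 5′ to 3′ on the gene's strand, from RefSeq on GRCh38.p14, a build not to be mixed with the array's positions. Capitals mark the GC box letters GGGCGG (or CCGCCC on the other strand) and the CCAAT box letters CCAAT (or ATTGG). The TATA box letters TATAAA (or TTTATA) were also searched for, and the motifs do not overlap one another here.
TMEM40, chr3:12759260-12759409, minus strand: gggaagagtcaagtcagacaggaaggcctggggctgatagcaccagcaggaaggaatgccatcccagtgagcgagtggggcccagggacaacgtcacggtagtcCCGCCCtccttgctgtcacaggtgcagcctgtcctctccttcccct
LSM3, chr3:14178667-14178816, plus strand: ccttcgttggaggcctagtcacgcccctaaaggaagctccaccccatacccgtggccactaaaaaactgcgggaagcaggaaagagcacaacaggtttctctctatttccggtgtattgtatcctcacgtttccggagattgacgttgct
NDFIP2, chr13:79481005-79481154, plus strand: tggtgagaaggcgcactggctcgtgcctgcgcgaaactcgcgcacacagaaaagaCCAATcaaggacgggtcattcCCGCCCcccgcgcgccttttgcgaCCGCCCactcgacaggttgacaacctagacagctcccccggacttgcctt
MBNL2, chr13:97141684-97141833, plus strand: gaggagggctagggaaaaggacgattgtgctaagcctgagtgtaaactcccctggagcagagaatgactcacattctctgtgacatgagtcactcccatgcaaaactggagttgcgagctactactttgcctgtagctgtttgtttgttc

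The 4 sequences held 1, 0, 2 and 0 GC boxes in the order printed, and NDFIP2 alone among them held a CCAAT box. Promoters of 300 bases (250 before the start and 50 after it) were matched for 82 of the 92 chromosome 3 genes and 50 of the 60 chromosome 13 genes. A GC box stood in 72.0% of the former and 62.0% of the latter, against 70.3% of the 10065 promoters matched among all genes tested and 44.6% of all 27305 promoters in the table. The CCAAT letters stood in 29.3% and 44.0%, against 36.9% of the promoters of tested genes and 35.7% of all promoters. The TATA letters stood in 6.10% and 8%, against 5.83% of the promoters of tested genes and 12.0% of all promoters. Median GC content was 64.7% on chromosome 3, 65.8% on chromosome 13 and 65.3% over the tested genes. No difference between these shares was tested.

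The chromosome 13 stretch also contains MIR17HG, the host transcript of a cluster of microRNAs studied as oncogenes in many tumours. The array measured the host transcript and not the mature microRNAs. For reference, 6 of the 12 mature products of its 6 hairpins are printed, 1 from each hairpin, from RefSeq on GRCh38.p14, with the seed (bases 2 to 8) in capitals.
hsa-miR-17-5p: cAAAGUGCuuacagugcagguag
hsa-miR-20a-5p: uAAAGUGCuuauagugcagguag
hsa-miR-18a-5p: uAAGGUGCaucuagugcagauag
hsa-miR-19a-3p: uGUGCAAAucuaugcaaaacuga
hsa-miR-19b-3p: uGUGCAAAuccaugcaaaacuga
hsa-miR-92a-3p: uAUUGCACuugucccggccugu

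By seed, miR-17-5p and miR-20a-5p formed one group, miR-19a-3p and miR-19b-3p formed another, and miR-18a-5p and miR-92a-3p each had a seed of its own among the 6.

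SPINT1 gave signals of 135 and 282 on the knockdown arrays and 1451 and 1445 on the control arrays, a log2 difference of -2.79. Between 45.6% and 48.1% of probe sets were called present per array by the deposited detection calls. All 12 squamous epithelial markers examined were present on at least 1 array, and 11 of them on all 4. Of the markers of other cells, 4 of 6 leukocyte, 2 of 5 endothelial and 4 of 6 fibroblast genes were present on no array, among them PTPRC, VWF, KDR, COL1A2 and DCN. The rest, CD14, LAPTM5, PECAM1, CDH5, TEK, COL1A1 and LUM, were present on at least 1 array. On all 4 arrays 1 leukocyte, 1 endothelial and 0 fibroblast genes were present. The summed signal of the leukocyte list ran from 901 to 924 in knockdown and 766 to 934 in control arrays, and that of the fibroblast list from 360 to 381 and from 324 to 451. The summed signal of the endothelial list was 980 to 1344 in knockdown and 636 to 655 in control arrays, and its part in the results below was not tested. Replicate arrays correlated at 0.982 (knockdown) and 0.985 (control) over the log2 signals of the probe sets tested, and arrays of different groups at 0.959 to 0.962.

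Along the chromosome 3 stretch the median difference was 0.41 on the log2(signal + 16) scale, a 1.32-fold higher knockdown level at the middle of the list. The addition of 16 keeps dim signals from giving large ratios and understates the folds of dim probe sets. The quartiles over the 197 members were 0.12 and 0.73, and the extremes were -1.52 and 3.0. The difference was above 0 for 159 members (80.7%). Over the 1440 other probe sets tested on chromosome 3 the median was 0.07 with 58.1% above 0, and over all 27985 probe sets tested it was 0.04 with 54.1% above 0.

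A probe set was called when its difference had an adjusted p under 0.05 in limma's moderated test over the whole table. Among the chromosome 3 members 64 (32.5%) were called higher in knockdown, where 7.09% of all probe sets tested were, and 9 (4.57%) were called lower, where 8.06% were. Both knockdown arrays lay above both control arrays for 131 members (66.5%), against 31.2% of all probe sets tested. Both lay below for 23 members (11.7%), against 26.2%. By gene, each gene taken at its brightest probe set, 42 of 92 were called higher (background 8.57%) and 5 lower (background 10.3%). The counts of calls depend on the arrays and the model. Without control array 1 or control array 2, 44 and 43 members were called in place of 73, and 22 were without limma's variance trend.

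Over the chromosome 13 stretch the median difference was 0.39, a 1.31-fold higher knockdown level, with quartiles of 0.19 and 0.57 over the 157 members and extremes of -0.85 and 1.78. The difference was above 0 for 134 members (85.4%), against 54.7% of the 435 other probe sets tested on chromosome 13, whose median was 0.05. Those 435 include 83 beyond the end of the stretch, with a median of 0.42. Calls among the members numbered 49 higher (31.2%) and 4 lower (2.55%), against 7.09% and 8.06% of all probe sets tested. The knockdown arrays lay wholly above the controls for 108 members (68.8%) and wholly below for 14 (8.92%), against 31.2% and 26.2%. By gene, 26 of 60 were called higher and 1 lower, against 8.57% and 10.3% of all genes tested. Without control array 1, control array 2 or the variance trend, 25, 22 and 4 members were called in place of 53. Differences of at least 2-fold were fewer here than on chromosome 3, with 5 probe sets higher and 0 lower, against 25 higher and 1 lower on chromosome 3. Over all 27985 probe sets tested, 751 were at least 2-fold higher and 843 at least 2-fold lower.

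**Figure D1:**
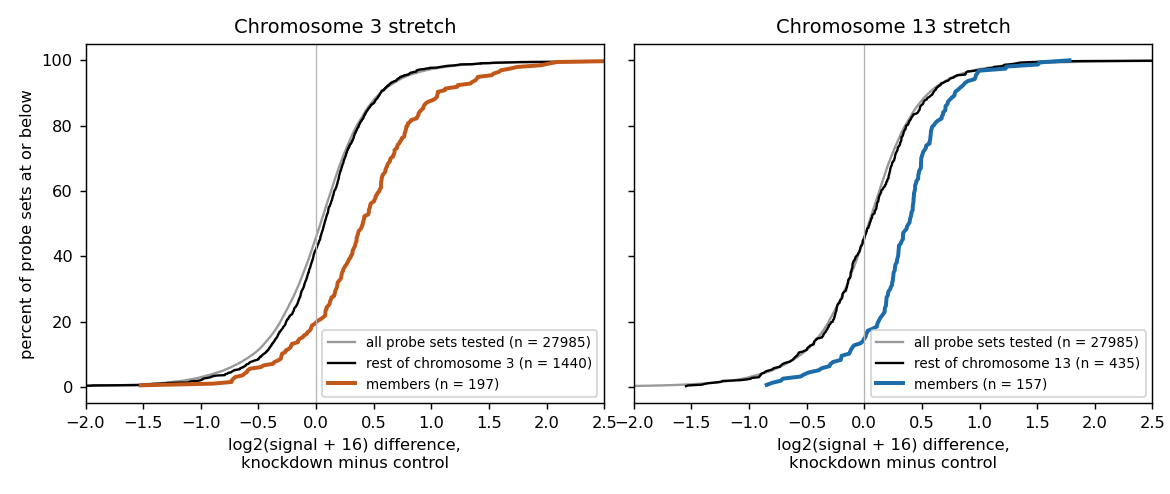
Cumulative share of probe sets (vertical axis, percent) at or below each log2(signal + 16) difference, knockdown minus control (horizontal axis), for the members, the rest of the same chromosome and all probe sets tested. The members' curves lie to the right of both others, with medians of 0.41 (chromosome 3) and 0.39 (chromosome 13), and the pooled rest of each chromosome follows all probe sets. The rest of chromosome 13 pools 352 probe sets before the stretch (median -0.04) with 83 after it (median 0.42). Of the members, only the brighter PLCL2 probe set, at 3.0, lies beyond the axis limits.

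Both knockdown arrays took part in the difference. After each probe set's mean over the 4 arrays was subtracted, the median chromosome 3 member stood at 0.22 and 0.20 on the knockdown arrays and at -0.18 and -0.21 on the control arrays. The chromosome 13 medians were 0.23, 0.16, -0.19 and -0.19 in the same order. For the rest of both chromosomes the 4 medians lay between -0.03 and 0.06. Of the chromosome 3 members, 143 stood above the control mean on both knockdown arrays, 26 below it on both and 28 on opposite sides, and of the chromosome 13 members 123, 18 and 16 did so. Over all 27985 probe sets tested, 11557 stood above the control mean on both knockdown arrays.

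**Figure D2:**
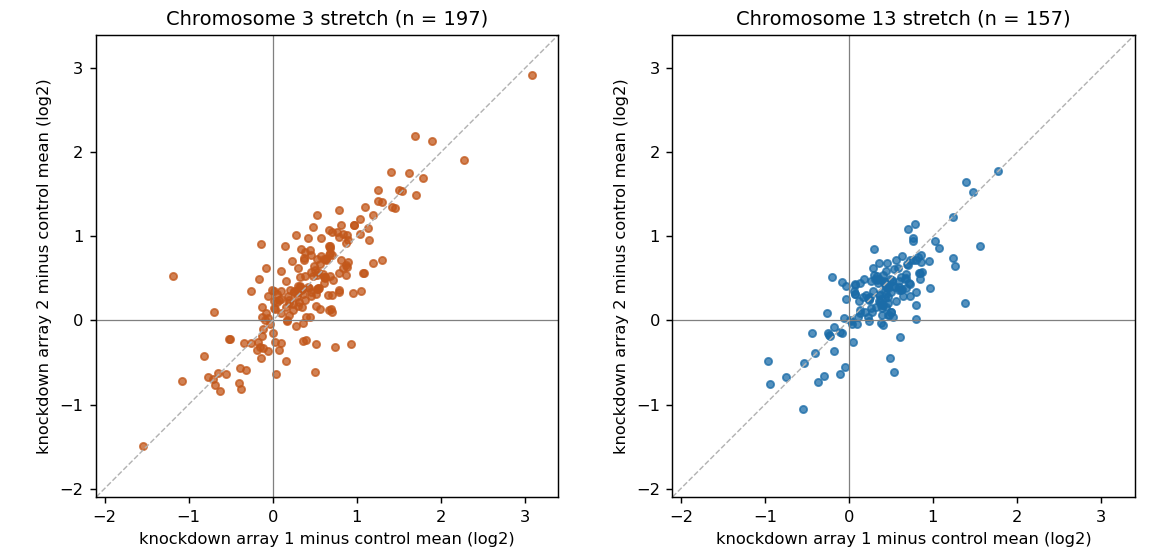
Each member's log2(signal + 16) on knockdown array 1 (horizontal axis) and on knockdown array 2 (vertical axis), both less the mean of the control arrays, which the axes share. Most points lie to the upper right of 0 on both axes, 143 of 197 for chromosome 3 and 123 of 157 for chromosome 13, and the dashed line marks equal differences.

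The chromosome 3 stretch was not raised throughout. Its first 2.5 Mb, from TRNT1 to EDEM1, went against the label, with a median difference of -0.59 over 17 members, 1 of them above 0, and with 9 called lower and 0 higher. Over all probe sets tested, 8.06% were called lower and 7.09% higher. No probe set of the next 2.5 Mb reached the minimum signal. The following bins had medians of 0.59 (66 members), 0.42 (31 members) and 0.48 (44 members), and 0.23 over the 16 members after those. The bin from 18.14 to 20.64 Mb held 5 members with a median of -0.11, and the 18 members between 23.14 and 25.64 Mb had a median of 0.29.

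**Figure D3:**
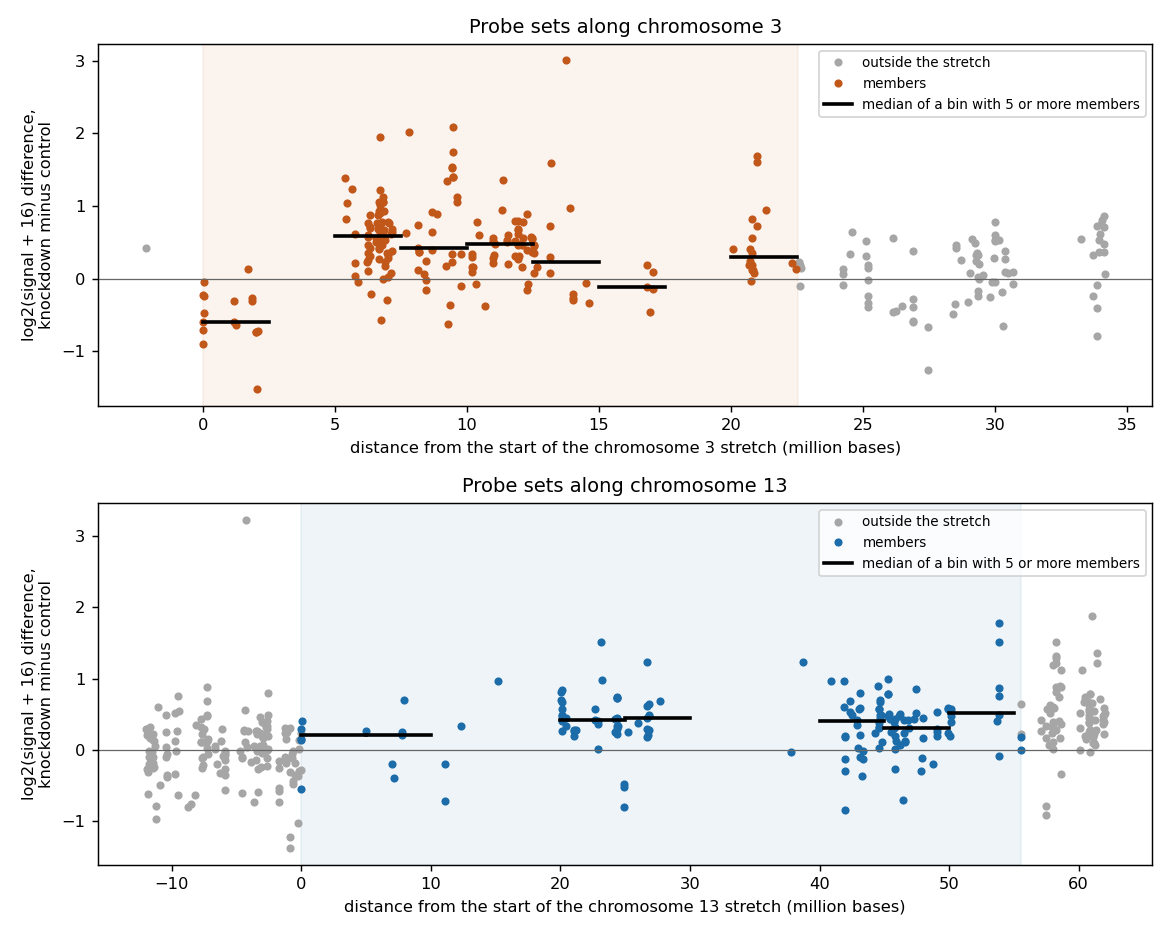
Log2(signal + 16) difference, knockdown minus control (vertical axis), of each probe set tested against its distance from the start of the stretch (horizontal axis, in Mb), for chromosome 3 (top) and chromosome 13 (bottom). Coloured points in the shaded band are members, grey points lie outside, and black bars are medians of bins with at least 5 members. The first chromosome 3 bin lies below 0 at -0.59, and the grey points to the right of the chromosome 13 stretch stand as high as its members, with a median of 0.42.

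The lower genes of the first section include enzymes and regulators of several organelles. EDEM1, which directs misfolded glycoproteins of the endoplasmic reticulum to degradation (chromosome 3, 5204432 to 5236642, plus strand), gave 1586 and 1646 on the knockdown arrays and 5422 and 4015 on the controls. Its log2 difference of -1.52 (SE 0.14, 2 arrays a group) was the lowest of the 197 members.

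TRNT1, which adds the CCA end to transfer RNAs (3143634 to 3165707), is the first named gene of the stretch. It gave 1402 and 1412 against 2271 and 2323, a difference of -0.70 (SE 0.11), and its other probe sets differed by -0.90 and -0.59, both called lower. SUMF1, which activates sulfatases, gave 1995 and 2033 against 3156 and 3127, a difference of -0.64. In EDEM1, TRNT1 and SUMF1, all called lower, the groups lay apart.

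SETMAR, a fusion of a histone methyltransferase with a transposase, gave 187 and 175 against 338 and 236, a difference of -0.60 that was not called. BHLHE40, a transcriptional repressor tied to the circadian clock, gave 5519 and 5469 against 7037 and 6179, a difference of -0.26 that was not called. CRBN, the substrate receptor of a ubiquitin ligase that thalidomide analogues bind, was called lower at its brightest probe set, at -0.48. In 16 members from TRNT1 to the start of EDEM1 the median was -0.54. This section, like the others named below, was delimited after the profile had been seen.

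From LMCD1 to PLCL2 (starts from 8518520 to 17026989) lay 152 members with 71 genes. Their median difference was 0.52, and 139 were above 0. Called higher were 60 (39.5%) and lower 0, against 7.09% and 8.06% of all probe sets tested. LMCD1, a LIM protein that acts as a transcriptional cofactor, opens the section with 480 and 458 against 218 and 131. It was not called present on any control array, and its fold of 2.61 is an estimate from those undetected signals. OXTR, the oxytocin receptor (8768557 to 8786300, minus strand), gave 264 and 277 against 117 and 96.2, a difference of 1.23 (SE 0.23).

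PLCL2, a catalytically inactive relative of phospholipase C (16901455 to 17107091, plus strand), had the largest difference of the stretch. Its signals were 216 and 190.2 on the knockdown arrays and 3.29 and 22.5 on the controls, where it was not called present. With each control signal raised to no less than the lowest signal called present on its array, the fold was 6.88, an estimate and not a lower bound. The fitted difference of 3.0 (SE 0.42) rests on control signals near the floor, and with log2(signal + 64) it was 1.81. Its dimmer member probe set differed by 0.97. RFTN1, a lipid raft protein (16332361 to 16530505), gave 278 and 362 against 84.9 and 106, with no control array called present, an estimated 3-fold higher.

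SLC6A6, the taurine transporter (14505332 to 14540171), gave 2039 and 2216 against 851 and 791, a difference of 1.36 (SE 0.12). SETD5, a protein with a SET domain whose loss of function in humans causes intellectual disability, gave 4643 and 5862 against 2581 and 3098, a difference of 0.88. IRAK2, a kinase-like adaptor of interleukin-1 and Toll-like receptors, gave 712 and 609 against 336 and 429, a difference of 0.77. The groups lay apart in all 3 genes.

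Among the DNA repair genes of the section, FANCD2 of the Fanconi anaemia pathway gave 2612 and 2660.1 against 2015 and 2093, a difference of 0.36 that was called. XPC, which recognises lesions in nucleotide excision repair, gave 2071 and 2169 against 1669 and 1696, a difference of 0.33 that was not called. RAD18, a ubiquitin ligase of postreplication repair, gave 626 and 603 against 537 and 514, a difference of 0.22 that was not called. The groups did not overlap in these 3 genes. RAD18's dimmer probe set gave 515 and 463 against 277 and 357 and was called higher at 0.61. OGG1, which excises oxidised guanine and is named here after its values were seen, was called higher at both its probe sets, at 0.68 and 0.87.

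The metabolic and RNA-handling genes described here differed by 0.46 to 0.57. HACL1, a peroxisomal enzyme of fatty acid alpha-oxidation, gave 2647 and 2568 against 1753 and 1738, a difference of 0.57. LSM3, a core subunit of the LSm ring that binds U6 RNA and whose promoter is printed above, gave 8038 and 11170.0 against 7174 and 6509, a difference of 0.47 that was not called. THUMPD3, a transfer RNA methyltransferase, gave 3419 and 3026 against 2431 and 2213 and was called higher at 0.47, as was MRPS25 of the mitochondrial ribosome at 0.46.

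The interval from PPARG to TMEM40 (starts from 12368000 to 12750414) was picked after the values had been seen, for its several large differences. Its 13 members had a median of 1.34, and 9 were called higher, where 7.09% of all probe sets tested were. PPARG, the nuclear receptor that directs fat cell differentiation (12368000 to 12450644, plus strand), gave 446 and 504 against 164 and 193, a difference of 1.34 (SE 0.19).

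MKRN2, a zinc finger ubiquitin ligase (12573594 to 12600208, plus strand), gave 2902 and 3010 against 995 and 1039, a difference of 1.52 (SE 0.11). Its other probe set differed by 1.54.

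TMEM40, a membrane protein whose promoter is printed above (12750414 to 12775749, minus strand), gave 8828 and 9924 against 4597 and 4390 (difference 1.06, SE 0.11), and its other probe set differed by 1.12. The differences of the 13 members ranged from -0.62 to 2.09, with 11 above 0. The 2.09 came from an unnamed probe set with 121 and 89.5 against 22.3 and 4.73, with no control array called present. That probe set reached the minimum signal only through its knockdown arrays. With control signals raised as for PLCL2, its fold was an estimated 3.68.

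**Figure D4:**
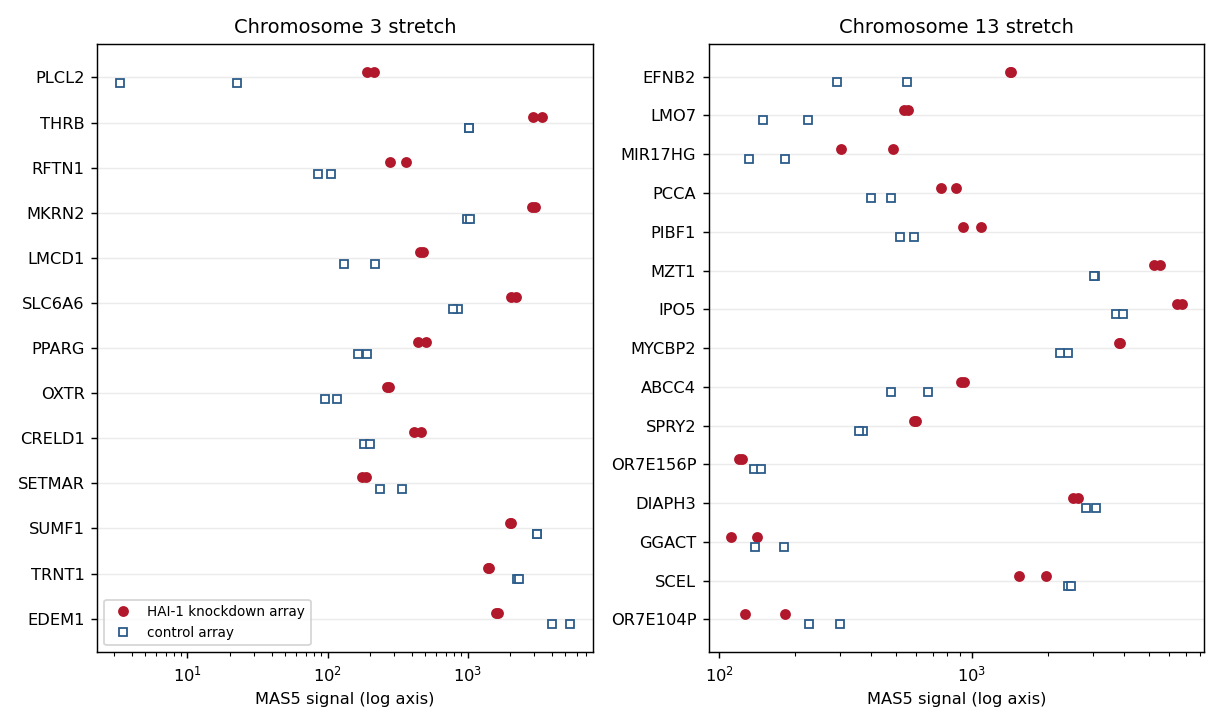
MAS5 signal on each array (horizontal log axis) for genes from the 10 largest and the 5 lowest differences in each stretch, each at its brightest probe set. Filled circles are knockdown arrays and open squares control arrays. The groups are apart for 14 of the 15 genes of the chromosome 13 panel, all but GGACT, and for all 13 of the chromosome 3 panel.

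The last section of the chromosome 3 stretch, from TBC1D5 to TOP2B (starts from 17173663 to 25614399), held 28 members with a median of 0.16. Of these, 4 (14.3%) were called higher and 0 lower, against 7.09% and 8.06% of all probe sets tested. THRB, the thyroid hormone receptor beta (24135225 to 24135961, minus strand), gave 3398 and 2932 against 1027 and 1026, a difference of 1.61 (SE 0.12), with 1.68 and 0.73 at its other member probe sets. The neighbouring genes described next differed by much less at their brightest probe sets. RPL15 of the large ribosomal subunit gave 34718 and 43802 against 33098 and 35517, with overlapping groups and a difference of 0.19. Its signal may include pseudogene copies, which these probe sets cannot separate. A dim RPL15 probe set differed by 0.83 and an unnamed one within the span of THRB by 0.94, neither called.

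UBE2E1, a ubiquitin-conjugating enzyme, differed by 0.19 and was not called, while UBE2E2 was called higher at 0.41 (2459 and 2415 against 1795 and 1859). NKIRAS1, an inhibitor of NF-kappaB signalling, gave 678 and 672 against 735 and 652, a difference of -0.04. RAB5A of early endosomes gave 8967 and 8274 against 7190.1 and 7989, a difference of 0.18. TOP2B, a DNA topoisomerase and the last named gene, gave 6048 and 5532 against 5173 and 5387, a difference of 0.13 that was not called.

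Values on either side of the end points are given without a test. NGLY1, the first named gene after the chromosome 3 stretch and an enzyme that strips sugars from misfolded glycoproteins, gave 1633 and 1534 against 1303 and 1400.2, a difference of 0.23. The 28 probe sets tested in the 5 Mb after the stretch had a median of -0.06. Before the stretch lay 1 tested probe set, annotated to EIF4B, with a difference of 0.43 and 4 listed alignments.

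Along chromosome 13 the members fell into blocks separated by gene-poor spans. The first 20 Mb held 15 members, and its bins of 5 Mb had medians of 0.21 (6 members), 0.20 (5 members), -0.20 (3 members) and 0.97 (1 member). The bins of 5 Mb with the most members had medians of 0.42 (72.12 to 77.12 Mb, 37 members), 0.44 (77.12 to 82.12 Mb, 13 members), 0.40 (92.12 to 97.12 Mb, 36 members), 0.31 (97.12 to 102.12 Mb, 40 members) and 0.52 (102.12 to 107.12 Mb, 12 members). These bins are wider than those on chromosome 3, so the spreads of their medians are not compared. No bin with 5 or more members had a median below 0.

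The end of the chromosome 13 stretch did not mark the end of the higher signals. The 83 probe sets tested beyond it, up to the end of the chromosome, had a median of 0.42. Of these, 79 were above 0, 29 (34.9%) were called higher and 1 (1.20%) lower, against 7.09% and 8.06% of all probe sets tested. ABHD13, the first named gene beyond the end, gave 300.1 and 223 against 222 and 219.8 at its brighter probe set, a difference of 0.21, and 0.65 at the other. IRS2, an adaptor of the insulin receptor chosen here after its values were seen, was called higher at 1 of 2 probe sets, at 0.42 and 0.27. On the other side the 352 probe sets before the stretch had a median of -0.04, with 12 (3.41%) called higher and 32 (9.09%) lower. HNRNPA1L2, the nearest named gene there, gave 75.3 and 43.8 against 74.7 and 74.0, a difference of -0.29.

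EFNB2, the ligand ephrin-B2 (chromosome 13, 105940098 to 105985463, minus strand), had the largest difference of the stretch. It gave 1418 and 1424 on the knockdown arrays and 552 and 292 on the controls, a difference of 1.78 (SE 0.23), and its other probe set differed by 1.52. The control arrays differed from each other, and both stayed below both knockdown arrays. LMO7, a LIM domain protein of adherens junctions and the nucleus (75232820 to 75291584, plus strand), gave 541 and 561 against 225 and 149, a difference of 1.51 (SE 0.21).

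MIR17HG, the host transcript of the microRNAs printed above (90802089 to 90804832, plus strand), gave 489 and 302 against 183 and 132, a difference of 1.23 (SE 0.26) with the groups apart. Both knockdown arrays and 1 of the control arrays gave it a present call. MYCBP2, a large ubiquitin ligase, gave 3842 and 3800.4 against 2393 and 2229, a difference of 0.72. SPRY2, a feedback inhibitor of receptor tyrosine kinase signalling, gave 599 and 590 against 370 and 358, a difference of 0.68.

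Genes of cell division lie side by side at the start of the first dense block. MZT1, a subunit of the gamma-tubulin complex (72180505, minus strand), gave 5535 and 5247 against 3070.3 and 3037, a difference of 0.82 (SE 0.10). BORA, an activator of the mitotic kinase Aurora A, gave 1929 and 2046 against 1243 and 1423, a difference of 0.57. PIBF1, a centrosomal protein, gave 1090.4 and 920 against 592 and 519, a difference of 0.83.

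DIS3, the catalytic subunit of the RNA exosome, sits among them and gave 2903 and 2916 against 1995 and 2144, a difference of 0.49. All 4 genes of this cluster were called higher and had groups that lay apart. SUGT1, a kinetochore and chaperone cofactor and the first named gene of the stretch, gave 8160 and 7384 against 6038 and 6621, a difference of 0.29 that was not called.

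Proteins of RNA processing and transport showed differences of 0.45 to 0.78. MBNL2, a splicing regulator with a printed promoter, gave 19796 and 19934 against 14152 and 14935, a difference of 0.45. IPO5, an importin that carries ribosomal proteins into the nucleus, gave 6763 and 6447 against 3695 and 3961, a difference of 0.78 (SE 0.10). ARGLU1, a splicing-linked coactivator, gave 7329 and 7159 against 5221 and 5058, a difference of 0.49. The 3 genes were called higher with groups that did not overlap.

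Ubiquitin and turnover genes included NDFIP2, an adaptor of NEDD4-family ligases, whose promoter is printed above. It gave 12284 and 10705 against 8413 and 7892, a difference of 0.49 that was called. UCHL3, a deubiquitinating enzyme, gave 6164 and 7034 against 4990.4 and 4952, a difference of 0.40 that was called. COMMD6, a COMM domain protein, gave 15105 and 17369 against 12902 and 12228, a difference of 0.37 that was not called.

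Enzymes and transporters of the stretch reached moderate differences. PCCA, the alpha subunit of propionyl-CoA carboxylase, gave 754 and 862 against 401 and 478, a difference of 0.86 (SE 0.15). ABCC4, an efflux pump for cyclic nucleotides and drugs, gave 933 and 908 against 672 and 478, a difference of 0.68. TM9SF2, a transmembrane protein of endosomes and the Golgi, gave 11819 and 11534 against 8687 and 8712, a difference of 0.42. TGDS, related to sugar nucleotide dehydratases, was called higher at 0.61.

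Several genes showed small differences. STK24, a kinase of the germinal centre family, gave 20526 and 20138 against 20018 and 20262, with overlapping groups and a difference of 0.01. The nearby TMTC4 and UBAC2 differed by -0.11 and 0.13, and neither was called. The dimmer TMTC4 probe sets differed by 0.44 and 0.16, also not called. LIG4, the ligase of nonhomologous end joining and the last named gene, gave 680 and 491 against 489 and 529, with overlapping groups and a difference of 0.18. Transcription factors KLF5 and KLF12 gave 0.34 and 0.19 at their brightest probe sets, not called, and ZIC2 was called higher at 0.43. The other KLF5 probe set was called higher at 0.45.

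SCEL, which encodes sciellin of the cornified envelope of squamous epithelia (77007894 to 77116644, plus strand), was the gene called lower within the stretch. It gave 1969 and 1529 against 2392 and 2466, a difference of -0.48 (SE 0.13), and its 3 probe sets ranged from -0.80 to -0.48, all called lower. MYCBP2 and EDNRB, which lie on its 2 sides among the named members, differed by 0.72 and 0.25. OR7E104P, an olfactory receptor pseudogene of a family of near-identical copies, gave 127 and 182 against 227 and 301, was present on no array, and is uncertain. DIAPH3, an actin-nucleating formin, gave 2511 and 2617 against 2831 and 3086, a difference of -0.20 that was not called. GGACT and the pseudogene OR7E156P differed by -0.29 and -0.20, neither called.

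Grouped by role, the lists on chromosome 3 were set with earlier results of these data known and are described by counts beside the background of 8.57% higher and 10.3% lower over 12794 genes, whose median difference was 0.02. Of 14 signalling genes tested 8 were called higher and 0 lower (median 0.65), among them SH3BP5 (0.56) and IRAK2. Of 14 transcription and chromatin genes 7 were called higher and 0 lower (median 0.35), among them NR2C2 (0.48), THRB and PPARG. Of 11 membrane traffic and cytoskeletal genes 6 were called higher and 1 lower (median 0.45), with ANKRD28 at 0.45 and BRK1 at 0.29, the latter not called.

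Of 8 translation and RNA processing genes 3 were called higher (median 0.43), of 7 mitochondrial and metabolic genes 3 higher and 1, SUMF1, lower (median 0.57), and of 6 DNA repair genes 2 higher (median 0.27). OXNAD1, an oxidoreductase of the metabolic list, differed by 0.08. The 7 ubiquitin and turnover genes had 3 called higher, CAPN7 (0.46), UBE2E2 and VHL (0.78), and 2 lower, EDEM1 and CRBN (median 0.36). Of 2 matrix genes CRELD1 (1.12) was called higher and FBLN2 (0.59) was not. The lists' medians lay between 0.27 and 0.86, and the 4 listed genes called lower, EDEM1, CRBN and SUMF1 among them, all lie in the first section.

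On chromosome 13, 6 transcription and nuclear genes had 3 called higher (median 0.38), 7 division and repair genes 4 (median 0.40), 9 ubiquitin and folding genes 5 (median 0.40) and 8 signalling genes 4 (median 0.45), with 0 lower in each. Among the signalling genes, DOCK9 (0.47) and TBC1D4 (0.57) were called higher and RAP2A (0.11) was not. The other RAP2A probe set, of nearly the same brightness, was called higher at 0.49. All 3 RNA processing genes were called higher (median 0.49), as were 2 of 3 transporters (median 0.42) and 2 of 6 metabolic and lysosomal genes (median 0.38). KCTD12, counted with the ubiquitin genes, differed by 0.25 and was not called. The matrix and adhesion list stood apart in level, since 11 of its 13 genes on the array were under the minimum signal. Its 2 tested genes, SCEL and ITGBL1, gave -0.48 and -0.20 at their brightest probe sets. The other ITGBL1 probe sets differed by 0.19 to 0.52, and the one at 0.52 was called higher. The genes of the stretches that belong to no list, 23 on chromosome 3 and 16 on chromosome 13, had medians of 0.35 and 0.34.

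**Figure D5:**
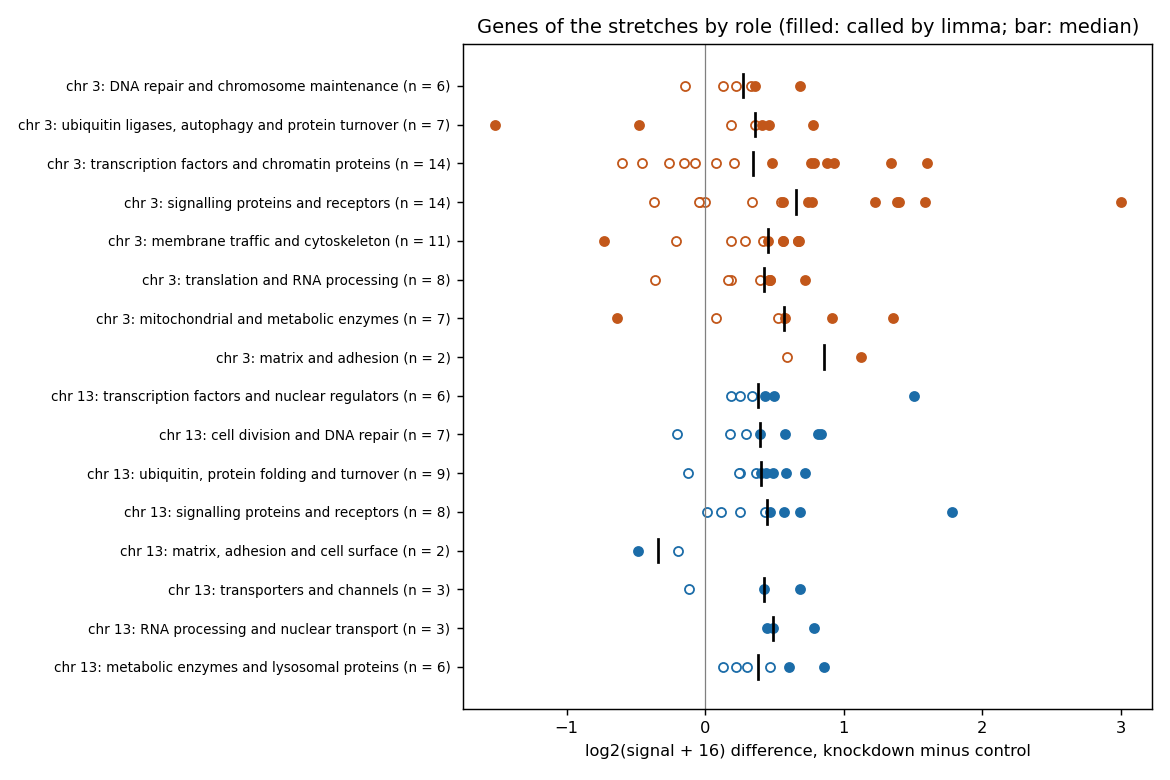
Log2(signal + 16) difference, knockdown minus control (horizontal axis), of each tested gene at its brightest probe set, by role list (vertical axis, with the number tested). Filled points were called by limma in the fit over all probe sets, open points were not, and black bars are list medians. All lists but the 2-gene adhesion list of chromosome 13 (median -0.34) have medians above 0.

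Among the genes named, many calls depended on the arrays and on the model, and no called difference changed sign under any setting tried. Without limma's variance trend 36 genes lost their calls, among them EFNB2, LMCD1, MIR17HG, PCCA, TRNT1 and SUMF1. With the deposited log2 values 25 lost them, among them PLCL2, EFNB2 and LMCD1, so that large differences were affected as well as small ones. With no minimum signal 18 lost them, MIR17HG among these. Without control array 1 the calls of 22 genes were lost, among them those of IRAK2, SH3BP5, NR2C2, ANKRD28, CAPN7, UBE2E2, FANCD2, THUMPD3 and MRPS25 on chromosome 3 and of ARGLU1, BORA, DIS3, DOCK9, MBNL2, NDFIP2, SCEL, SPRY2, TGDS, TM9SF2, UCHL3 and ZIC2 on chromosome 13. Without control array 2 the calls of 21 genes were lost, the same ones except IRAK2, BORA and TGDS, with ABCC4 and TBC1D4 in addition. Without knockdown array 1 those of ABCC4, CAPN7, NR2C2 and TBC1D4 were lost, and without knockdown array 2 those of FANCD2, MRPS25 and SCEL.

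Separate probe sets of one gene lay on the same side of 0 in most genes of the stretches. The stretches were chosen for differences above 0, so these counts are a description only. Of the 50 chromosome 3 genes with several members, 36 had all of them above 0, 7 all below and 7 on both sides. Of the 36 chromosome 13 genes, 29 had all above, 3 all below and 4 were mixed. Over all 6324 genes with several tested probe sets, 33.1% had all above 0 and 60.6% kept one sign. The median range within a gene was 0.30 on both stretches and 0.31 over all genes, so probe sets of one gene were about as far apart as elsewhere.

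Among the members, which all reached the minimum signal, the median difference was above 0 in each class of signal. On chromosome 3 the median was 0.46 for members with a mean signal under 200, 0.52 between 200 and 1000 and 0.35 above, and on chromosome 13 it was 0.27, 0.40 and 0.44. Of all probe sets placed in the stretches, 182 of 379 on chromosome 3 and 261 of 418 on chromosome 13 were under the minimum signal. Their median differences were 0.08 and 0.04, close to the 0.04 over all probe sets tested. A mean over both groups lets in a dim probe set through the group where it is higher, and 15 chromosome 3 and 4 chromosome 13 members had a control mean under 55.

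Just over the minimum lay SYN2, a synaptic vesicle protein (mean 56.2, difference 0.89, present on no array), and a dim probe set of LMO7 (mean 59.3, difference 0.98). Just under it lay dim probe sets of TTLL3 (mean 54.8, difference 0.90) and ATG7 (mean 54.8, difference 0.45), and one of TPP2 (mean 53.2, difference 0.92). The detection calls gave 12 chromosome 3 members present on both knockdown arrays and no control array, and 0 the other way round. On chromosome 13 there were 1 and 0, and over all probe sets tested 1.32% and 1.20%.

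The annotation is not exact. The gene table placed the genes of 5 members outside the stretch, namely SLC2A4RG, PFDN1 and RPL15P22 (chromosome 3) and LGMN and FLT1 (chromosome 13), with differences of 0.02 to 0.35. Without them the chromosome 3 median was 0.41 over 194 members and the chromosome 13 median 0.40 over 155, a check added after the data had been seen.

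Windows shorter than the stretches (22.55 Mb on chromosome 3 and 55.54 Mb on chromosome 13) were also laid over the genome, and raised medians were found in other places too. Of 840 windows of 2.5 Mb with at least 10 probe sets, 20 (2.38%) had a median of 0.4 or more, of which 7 lay in or across the stretches, 2 lay beyond the end of the chromosome 13 stretch and 11 lay on other parts of the genome. Of 539 windows of 5 Mb 8 (1.48%) reached 0.4, and 6, 1 and 1 lay in those places. Medians of -0.4 or less were found in 45 and 32 windows. By whole chromosome, the median of chromosome 13 was the highest, at 0.15, that of chromosome 3 was 0.10 and that of chromosome 7 the lowest, at -0.25.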

How the data were processed

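RNA of 4 cell samples was hybridised to 1-colour Affymetrix arrays. The deposited table gives the authors' MAS5 signal intensity per probe set (linear, per the file headers and the submitters' processing notes), the authors' detection p-value and present call, and the authors' log2 values, which were used as an alternative. No source used here names the software version or the alignments' genome build. The arrays' trimmed means show a common scale, so intensities were not scaled again. The number of arrays limits the precision.

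Control probe sets and those with a mean signal under 55 were left out. Differences were computed on log2(signal + 16) with limma 3.58.1 in R 4.3.3 (trend, two-sided, Benjamini-Hochberg over all 27985 probe sets, threshold 0.05). That step was also run on simulated data, where small planted changes were recovered only in part. The simulated spread depended on the signal level alone, unlike that of real probe sets. Tables and figures used Python 3.11.15, pandas 2.3.3 and matplotlib 3.10.9. A gene took its brightest probe set. Where a group had no array called present, the fold is an estimate and not a lower bound. Genes were named from RefSeq (GRCh38.p14). Its placements were used only for the promoters, the printed sequences and the check of genes that lie outside the stretches.

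The members, the role lists and the rules were chosen with earlier results of these data known. Named were, per stretch, the 10 largest and 5 lowest differences, the 5 brightest genes, up to 4 genes a role list, and the genes at the ends, their neighbours and the minimum. Further names were chosen after their values were seen: CRBN, VHL, OGG1, EDNRB and IRS2. Some genes that the rule takes are not reported here. Alternatives were the pseudocount, the filter, centring, quantile normalization, the deposited log2 values, the variance trend, 1 probe set a gene, the end points, each array left out and the array number as a block.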

Additional observations from a re-analysis of the deposited data

How the results depend on the processing

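With 2 arrays a group, counts of calls depend on the spread estimate more than the medians do, and dim signals carry a larger error. The medians of both stretches stayed above 0 under each alternative tried, and no called difference of a named gene changed sign. Of the differences that were not called, those of 4 genes changed sign under some setting: STK24 (-0.05 with quantile normalization and near 0 with centred arrays or without knockdown array 1), OXNAD1 (-0.01) and LIG4 (-0.05) without knockdown array 1, and NKIRAS1 (0.05) without control array 1. The chromosome 3 median was 0.43 with log2(signal + 1), 0.35 with log2(signal + 64), 0.27 with no minimum signal, 0.36 with a minimum at the upper quartile, 0.43 from the deposited log2 values, 0.46 with 1 probe set a gene, 0.47 with the stretch shortened by 2 Mb at each end, and 0.38 to 0.43 with 1 array left out. The chromosome 13 median was 0.33 with log2(signal + 64), 0.20 with no minimum and 0.36 to 0.43 with 1 array left out.

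Calls over all probe sets, 4240 in all, numbered 2211 with no minimum, 2796 from the deposited log2 values, 1273 without the variance trend, and 2123 to 4690.0 with 1 array left out. Calls among chromosome 3 members numbered 41 with no minimum, 22 without the trend, 47 with 1 probe set a gene (fewer features counted) and 43 to 67 with 1 array left out. Among chromosome 13 members they numbered 27 with no minimum, 22 from the deposited log2 values, 4 without the trend, 27 with 1 probe set a gene, and 22 to 55 with 1 array left out. Where a group was left with 1 array, that array was assumed to vary like the other group. Apart from the cases whose construction counts fewer features, the cause was not tested.

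The labels give the arrays of both groups the same numbers, but with 2 pairs and a correlation of -0.018 between the deviations of same-numbered arrays the numbers are not shown to pair them. With the replicate number as a block, 73 chromosome 3 and 53 chromosome 13 members were called, as without it, and 4370.0 of all probe sets. Over the named genes and all settings, 852 results stayed on their side of the threshold, 131 calls were lost and 18 were gained.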

Other observations

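Several genes of the stretches had probe sets whose differences were far apart, which a single value per gene hides. All were picked after their values had been seen. TTLL3, a tubulin-glycine ligase on chromosome 3, had 5 members with differences from 0.64 to 1.95. The probe set with the largest gave 155 and 226 on the knockdown arrays and 29.0 and 45.8 on the controls. It was not called present on the controls and was an estimated 3.86-fold higher. RBM26, an RNA-binding protein on chromosome 13, had a probe set at the 3' end of its alignments (78786508 to 78788297, minus strand) with 896 and 890.02 against 368 and 372, a difference of 1.24, while its brightest probe set differed by 0.44. RPUSD3, a mitochondrial pseudouridine synthase on chromosome 3, was called higher at all 3 of its probe sets, by 0.57 to 1.22. ARGLU1 ranged from -0.09 to 0.87 over 4 probe sets.

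A probe set without a gene name on chromosome 3 (10956651 to 10957419, plus strand) gave 444 and 529 on the knockdown arrays and 137 and 84.1 on the controls, a difference of 2.02, and was called present on all 4 arrays. Why probe sets of one gene differ was not tested.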
